A study of Saccharomyces cerevisiae with 12 samples.

Results

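The comparison described here set budding yeast without the NUP60 gene against wild type, on 6 of the 12 arrays of the series. The arrays were chosen by title, 3 of nup60 deletion cells and 3 of wild-type cells. Both strains were MATa his3 leu2 met15 ura3, and the deletion strain carried the kanamycin resistance marker KANR in place of NUP60 (nup60Δ::KANR). The 3 arrays of an ada2 deletion (MATa his3 leu2 met15 ura3 ada2Δ::KANR, also called ada2 here) served for a direct comparison of the deletions. The 3 arrays labelled as the deletion of both genes were not compared. Both sets entered the estimate of the spread, the background level and the choice of probe sets. Per the labels, cells grew at 30 °C in 50 mL of rich medium to mid-log phase, and each array read total RNA of 1 biological replicate. Each group was 1 strain, so other differences between the strains cannot be told apart from the deletion, and whether replicates started from separate colonies is not given in the sources used here.

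Nup60 is a protein of the nuclear basket, the set of filaments that the nuclear pore complex extends into the nucleus. It anchors Mlp1, Mlp2 and Nup2 at the pore, and through the basket the SUMO protease Ulp1 is held at the nuclear envelope. The basket is known for the quality control of mRNA before export, for contacts between pores and some induced genes, and for a part in the response to DNA damage. Yeast in rich medium normally ferments glucose, with genes of respiration, reserve carbohydrate and stress protection held low.

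The values were log2 intensities of Affymetrix probe sets, 1 for each of 5449 S. cerevisiae genes. Array medians lay between 11.23 and 11.28 in wild type and between 11.24 and 11.26 in nup60. The lowest correlation across genes between arrays of a group was 0.993 in wild type and 0.999 in nup60. A background level of 5.62 was taken from probe sets of a second yeast, S. pombe, and 123 to 148 genes per array lay below it. Wild-type array 1 stood apart. Its spiked control RNAs averaged 9.02, against 6.71 to 7.0 on the other wild-type, nup60 and ada2 arrays, and its ribosomal RNA probes averaged 13.36, against 11.84 to 12.18. The difference between 3′ and 5′ probe sets of ACT1, a sign of RNA integrity, was 0.29 to 0.33 on these arrays. That of WBP1 was highest on wild-type array 1, at 1.16, against 0.95 to 1.12 on the others. Results that moved with wild-type array 1 are given with and without it.

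NUP60 itself was read first. Its log2 intensity was 12.50, 12.57 and 12.51 on the wild-type arrays and 6.43, 6.51 and 6.17 on the nup60 arrays. The groups were far apart, by 71.4-fold (log2 difference -6.16 ± 0.091, standard error, n = 3 arrays per group). The nup60 arrays stayed above the background level at this probe set. The genes beside NUP60 on the chromosome, TFC3 (adjusted p = 0.346) and ERP1 (adjusted p = 0.337), did not pass the test, at -0.11 ± 0.096 and 0.05 ± 0.039. The mating type and markers were read next. HMRA1, the a1 gene of a cells, was at 11.41 to 11.55 in wild type and 11.10 to 11.30 in nup60, whereas the alpha pheromone gene MF(ALPHA)1 was below background on all 6 arrays, as were URA3 and MET17 (the met15 locus). LEU2 was at 6.32 to 6.86, above background, and passed in limma as lower in nup60 (-0.32, adjusted p = 0.0294). That call was lost with only the groups compared (adjusted p = 0.0685). It was also lost without any 1 of the 6 arrays other than wild-type array 1. The a-cell identity list had 4 of 8 genes higher and 1 lower (median 0.15), with 2 higher and a median of 0.07 without nup60 array 1 and a median of 0.09 without wild-type array 1, and 1 of 5 alpha-cell genes was higher. HIS3 was at 12.32 to 12.52 on the 6 arrays although the labels name both strains his3.

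Calls were made with limma, a linear model with moderated variance, on all 12 arrays. The threshold was a p below 0.05 after Benjamini-Hochberg adjustment over all 5449 genes. In nup60, 1369 genes were higher than in wild type (25.1% of those tested) and 1429 were lower (26.2%). The rises reached much further than the falls. At least 2-fold rises numbered 142 (2.61%), of which 33 were at least 4-fold and 5 at least 8-fold, while only 3 genes were at least 2-fold lower (0.0551%), NUP60, IMD2 and FCY21. Over all genes the median log2 difference was -0.02, and the median standard error was 0.060. Without wild-type array 1 there were 1380 higher and 1392 lower genes. Without the arrays labelled as the double deletion, whose mating-type genes and URA3 go against their labels, there were 1438 and 1563. Since 25.1% and 26.2% of all genes passed in each direction, a share near these says nothing about a list. Each array read the RNA of a whole culture on a scale relative to the other genes, so a change in every cell and a change in the share of cells in some state cannot be told apart.

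**Figure D1:**
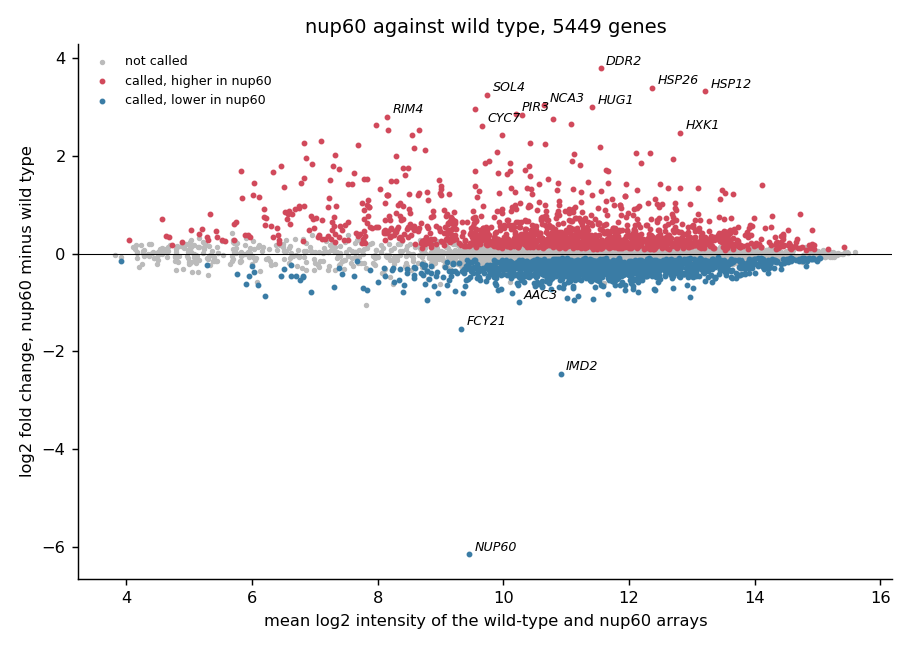
Log2 fold change of nup60 against wild type (vertical axis) by the mean log2 intensity of the 6 arrays (horizontal axis), 1 point per gene for 5449 genes, with genes that passed at an adjusted p below 0.05 coloured. The rises reach 3.79 (DDR2), whereas below -1.54 (FCY21) there are only IMD2 and NUP60.

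The largest rises were in genes of the general stress response. DDR2, which codes for a small protein induced by many stresses, was at 9.49, 9.73 and 9.74 in wild type and 13.53, 13.44 and 13.37 in nup60. HSP26, a small heat shock chaperone, stood at 10.58, 10.63 and 10.80 against 14.09, 14.05 and 14.04. HSP12, a membrane-associated protein of stressed and resting cells, was at 11.46, 11.67 and 11.54 against 14.95, 14.87 and 14.81. In none of these genes did the groups come near each other, and the rises were 13.9-fold, 10.5-fold and 9.99-fold (adjusted p = 2.04e-10, 2.12e-11 and 4.44e-11). The gene lists of this report were chosen with earlier results of these data known, so their counts are a description and not independent evidence. All 15 measured members of a list of small heat shock and stress proteins rose, 13 of them at least 2-fold. Their median log2 rise was 2.07. They included HSP42, another small chaperone (2.07 ± 0.077), HSP30, a regulator of the plasma membrane proton pump (2.07 ± 0.071), and the hydrophilins SIP18 (2.22 ± 0.096) and GRE1 (2.01 ± 0.096). The smallest rises were those of the Hsp70 gene SSA3 (0.61 ± 0.062) and of HSP31, a methylglyoxal-removing chaperone (0.58 ± 0.070).

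The regulators of that response moved less uniformly. Of 16 listed, 6 rose and 1 fell, with a median of 0.14. XBP1, a repressor made under stress, was at 7.33, 6.58 and 6.78 in wild type and 9.55, 9.44 and 9.31 in nup60, a rise of 2.54 ± 0.16 (adjusted p = 3.52e-07). USV1, a stress transcription factor, rose by 1.62 ± 0.071. MSN4 rose by 0.88 ± 0.091, and MSN2, its partner as activator of stress genes, was at -0.02 ± 0.082 (adjusted p = 0.855). YAK1, a kinase that opposes growth signalling by protein kinase A, rose by 0.60 ± 0.087. RIM15, a kinase for entry into the resting state, was at 0.21 ± 0.11 and did not pass, but did so at 0.34 without wild-type array 1 (adjusted p = 0.00925). Within the Ras and protein kinase A pathway, which restrains the response in growing cells, 5 of 15 measured genes rose and 1 fell, with a median of 0.01. TPK2, a catalytic subunit, rose by 0.47 ± 0.034, BCY1, the inhibitory subunit, by 0.40 ± 0.064, and PDE1, a cyclic AMP phosphodiesterase, by 0.42 ± 0.066. RGS2, which turns off the glucose-sensing G protein subunit Gpa2, rose by 0.66 ± 0.10, and RAS1 fell by 0.33.

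**Figure D2:**
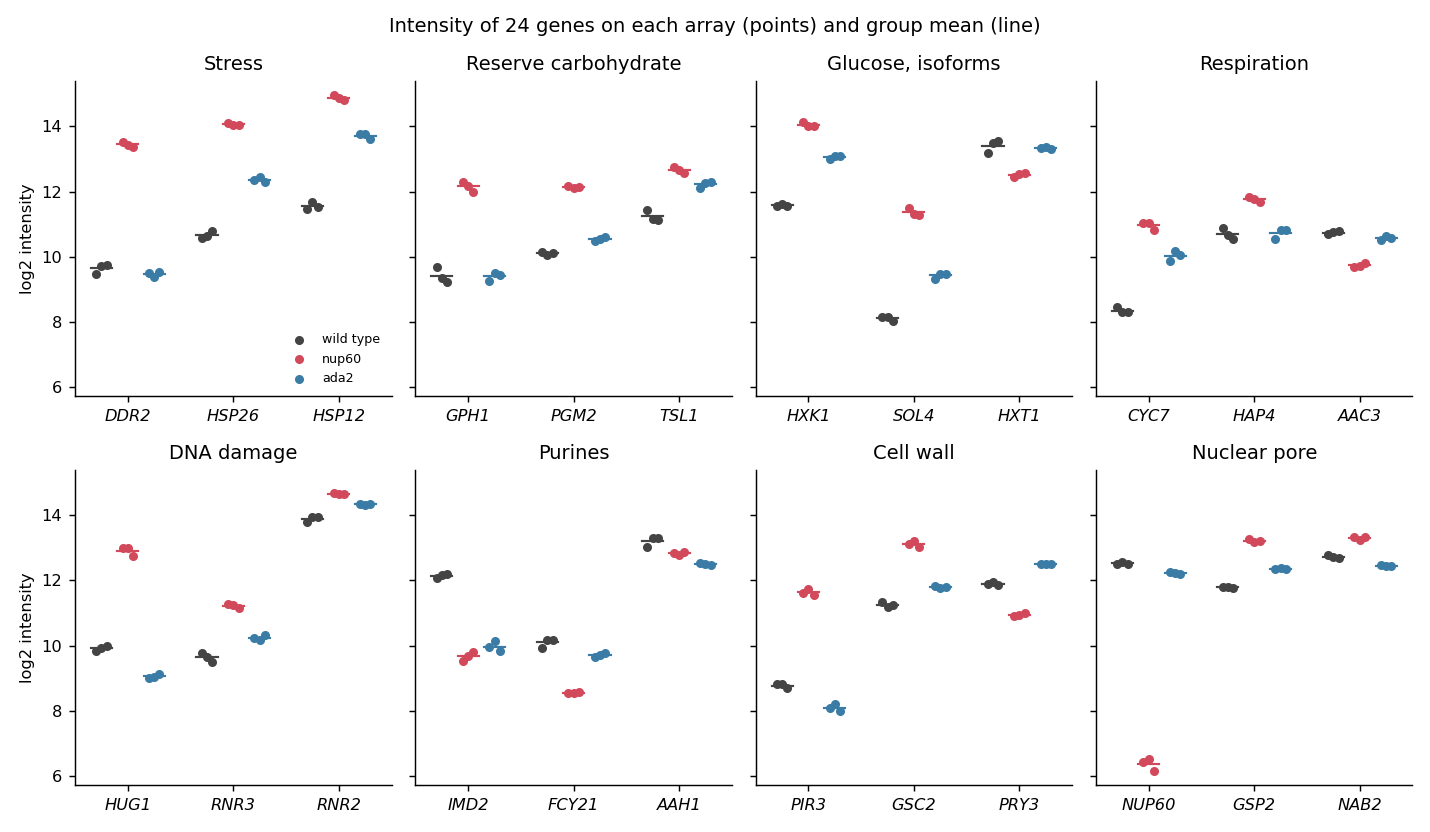
Log2 intensity (vertical axis) of 24 genes on each array, grouped by role, for wild type (dark), nup60 (red) and ada2 (blue), with 1 point per array and a line at the group mean. DDR2, GPH1, HUG1 and PIR3 were high on the nup60 arrays only, whereas IMD2 was low on both the nup60 arrays (9.53 to 9.80) and the ada2 arrays (9.82 to 10.13).

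Both reserve carbohydrates of yeast, glycogen and trehalose, showed higher transcripts for their making and their breakdown. Of 19 glycogen genes, 17 rose, 9 of them at least 2-fold, and 1 fell (median 0.71). GPH1, glycogen phosphorylase, which frees glucose from glycogen, was at 9.68, 9.34 and 9.23 in wild type and 12.31, 12.18 and 11.99 in nup60. The 6.71-fold rise (2.75 ± 0.12, adjusted p = 2.62e-08) was the largest of the list. GLC3, the branching enzyme, rose by 2.24 ± 0.052, with 9.46 to 9.61 in wild type and 11.77 to 11.81 in nup60. The glycogen synthases GSY1 and GSY2 rose by 1.25 ± 0.093 and 1.07 ± 0.12, the debranching enzyme gene GDB1 by 1.0 ± 0.074, its inhibitor IGD1 by 1.86 ± 0.10, and the primer protein gene GLG1 by 0.71 ± 0.065. Regulatory subunits of the phosphatase that activates glycogen synthase rose as well, GAC1 by 1.79 ± 0.088 and GIP2 by 1.65 ± 0.20. Wild-type GAC1 was above background on 1 array only.

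Trehalose, a disaccharide that protects proteins and membranes, had 6 of 7 genes higher (median 0.81). TPS1 and TPS2, the synthase and the phosphatase, rose by 0.81 ± 0.057 and 1.0 ± 0.095. Their regulatory subunit genes differed, since TSL1 rose by 1.42 ± 0.12 and TPS3 was at 0.04 ± 0.084 (adjusted p = 0.70), or 0.16 without wild-type array 1 (adjusted p = 0.016). The trehalase genes NTH1 (0.99 ± 0.044), NTH2 (0.36 ± 0.036) and ATH1 (0.69 ± 0.084) rose with the genes of synthesis. Without wild-type array 1 the medians of the glycogen and trehalose lists were both 0.80.

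In pairs of related proteins the members often differed in their change. The 30 pairs, of sugar metabolism and other functions, were chosen with earlier results of these data known, so their counts are a description and not independent evidence. In each, 1 member was assigned as the ordinary form and the other as linked to stress or to a growth condition. The assignment was not tested with these data, and the counts and medians of the pairs depend on it. It is loose for some pairs, such as CTT1 with CTA1, IMD2 with IMD3, PDC5 with PDC1, GPD1 with GPD2 and PIR3 with HSP150. The linked member was higher in 26 pairs and lower in 4, with a median of 1.16. The ordinary member was higher in 7 pairs, lower in 4 and not called in 19, with a median of -0.01. In 20 pairs the linked member was higher and the ordinary one was not. HXK1, the hexokinase of poor carbon conditions, was at 11.56, 11.62 and 11.55 in wild type and 14.12, 14.02 and 14.01 in nup60, a 5.56-fold rise (adjusted p = 2.12e-11). HXK2, the hexokinase of fermenting cells, was at 14.70, 14.74 and 14.79 against 14.66, 14.68 and 14.66 (adjusted p = 0.077, and 0.0306 at -0.10 without wild-type array 1). In the pentose phosphate pathway, where 5 of 12 genes rose and 1 fell (median 0.10), the same split ran through 4 pairs. SOL4, a 6-phosphogluconolactonase, was at 8.17, 8.15 and 8.03 in wild type and 11.50, 11.32 and 11.28 in nup60 (3.25 ± 0.077), and SOL3, its partner, was at 0.00 ± 0.039. The dehydrogenase gene GND2 (1.24 ± 0.068), the transketolase gene TKL2 (1.32 ± 0.079) and the transaldolase gene NQM1 (1.89 ± 0.091) rose, and GND1 (-0.11), TKL1 (-0.16) and TAL1 (0.06) did not pass. Without the arrays labelled as the double deletion GND1 (adjusted p = 0.0395) and TKL1 (adjusted p = 0.0466) passed as lower, and the list then had 4 falls.

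Among other pairs, PGM2, the main phosphoglucomutase of glycogen and galactose use, rose by 2.03 ± 0.045 while PGM1 fell by 0.24. TDH1 rose by 1.24 ± 0.063 beside TDH3 at 0.02 ± 0.027, and PYK2, the lesser pyruvate kinase, by 0.98 ± 0.052 beside CDC19 at -0.01 ± 0.027. Of 12 glycerol genes 6 rose and 3 fell (median 0.14, and 0.01 after a second quantile normalization). GPP2, a glycerol phosphatase, rose by 1.01 ± 0.047 and GPP1 fell by 0.25. GSY2 and GSY1 rose alike. For citrate synthase the ordinary member CIT1 rose by 0.66, more than CIT2 (0.21), whose call was lost without wild-type array 1 or 2 or nup60 array 1 or 2. The 4 linked members that fell were IMD2, AAC3, ANB1 and PDC5. Only in the AAC3 pair did the members move in opposite directions this way round, since PET9, the main ADP/ATP carrier of mitochondria, rose by 0.34 ± 0.034.

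**Figure D3:**
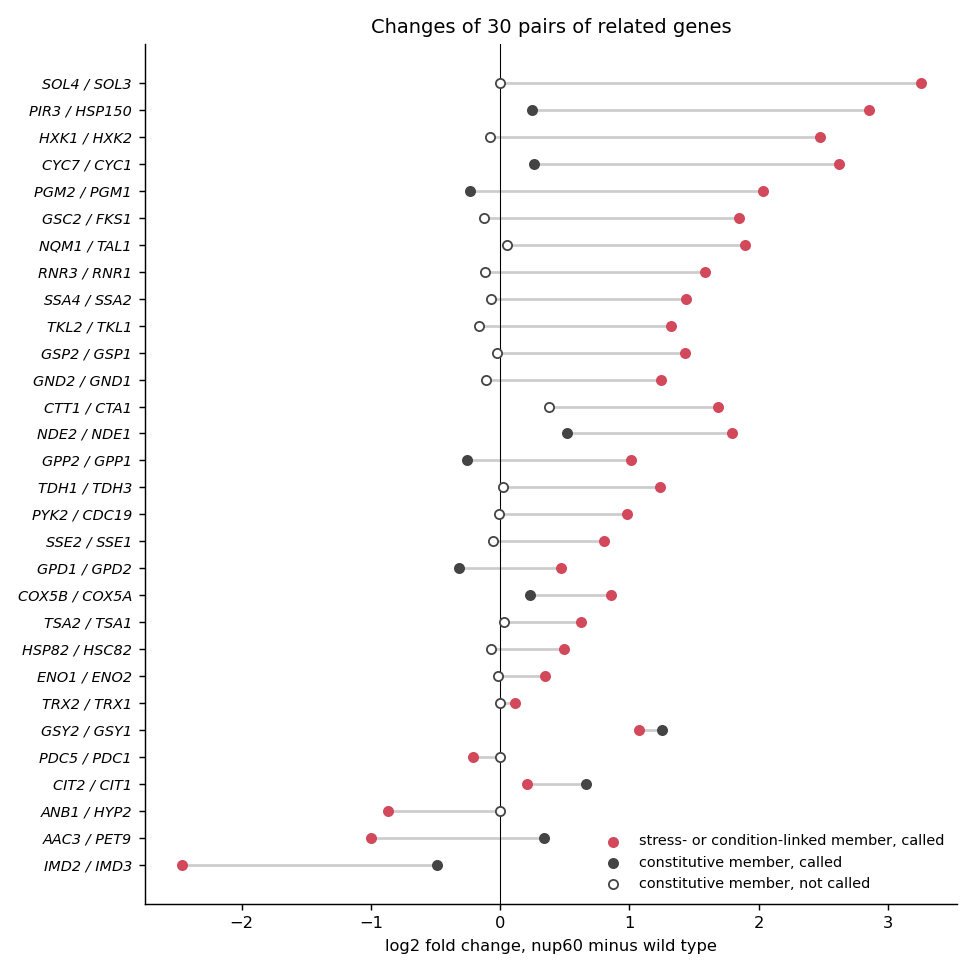
Log2 fold change of nup60 against wild type (horizontal axis) for 30 pairs of related genes, 1 row per pair. The member assigned as stress- or condition-linked is red and the one assigned as ordinary is black. Filled points passed the test. The red points lie to the right of the black ones in most rows, with a median of 1.16 against -0.01.

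Some glucose uptake genes changed in each direction. HXT1, a transporter for abundant glucose, fell from 13.17, 13.49 and 13.55 to 12.46, 12.55 and 12.56 (-0.88 ± 0.10, adjusted p = 5.27e-05). The transporters for low glucose HXT4 and HXT5 rose by 1.03 ± 0.037 and 1.53 ± 0.12. HXT7, another high-affinity transporter, rose by 1.93 ± 0.052, on a probe set that can also detect related transcripts. MTH1, which helps repress HXT genes when glucose is low, rose by 1.15 ± 0.064, and MIG3, a glucose-dependent repressor, fell by 0.72. GLK1, glucokinase, rose by 1.29 ± 0.043 and its relative EMI2 by 0.80 ± 0.079. SUC2, invertase, a classic glucose-repressed gene, fell by 0.18. In all, 13 of 33 measured genes of uptake and glucose sensing rose and 6 fell (median 0.01). Glycolysis had 6 of 20 genes higher and 3 lower (median 0.01). The phosphofructokinase genes PFK1 and PFK2 fell by 0.30 and 0.29. The abundant enzymes ENO2, GPM1 and TDH3 lay within 0.03 of wild type and did not pass.

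Most transcripts of the respiratory machinery rose. Of 26 respiratory chain genes 25 rose (median 0.50), and of 16 ATP synthase genes 15 rose (median 0.30). CYC7, the cytochrome c of low oxygen and stress, was at 8.45, 8.30 and 8.30 in wild type and 11.03, 11.05 and 10.83 in nup60, a 6.15-fold rise (adjusted p = 1.88e-09). CYC1, the main cytochrome c, rose by 0.26 ± 0.069. NDE2, an external NADH dehydrogenase, rose by 1.79 ± 0.13 and CYB2, the lactate dehydrogenase of mitochondria, by 1.05 ± 0.12. Nuclear genes of cytochrome bc1, CYT1 and RIP1, rose by 0.95 ± 0.060 and 0.91 ± 0.10. INH1 and STF1, which inhibit reverse running of the ATP synthase, rose by 1.18 ± 0.069 and 1.17 ± 0.041, more than any other member of their list. HAP4, the activating subunit for respiratory genes, rose by 1.06 ± 0.10, with 10.55 to 10.88 in wild type and 11.67 to 11.85 in nup60. In the TCA cycle 12 of 16 measured genes rose (median 0.46), led by SDH2 (1.0 ± 0.073), SDH4 and SDH1, subunits of succinate dehydrogenase.

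Genes for growth on acetate, ethanol and fat changed in part. Of 19 gluconeogenesis and glyoxylate genes, 15 rose and 1 fell (median 0.48, and 0.28 after a second quantile normalization). The activators CAT8 and ADR1 rose by 0.98 ± 0.11 and 0.88 ± 0.17. The enzymes most specific to gluconeogenesis and the glyoxylate cycle moved less. FBP1, fructose bisphosphatase, lay near the background level, at 5.44 to 5.65 in wild type and 5.46 to 5.58 in nup60. MLS1, malate synthase, was at 0.05 ± 0.10 (adjusted p = 0.686), and ICL1, isocitrate lyase, rose by 0.30 ± 0.060. ADH2, the alcohol dehydrogenase that consumes ethanol, fell by 0.54. Fatty acid oxidation and the carnitine shuttle had 9 rises and 5 falls among 22 (median 0.12), with 3 falls without wild-type array 2 and 2 without nup60 array 2. A second quantile normalization left 5 rises and a median of 0.02, and without dim genes the median was 0.05. The carnitine carrier gene CRC1, which imports acetyl units into mitochondria, rose by 1.96 ± 0.11, from 5.72 to 6.19 in wild type to 7.83 to 7.86 in nup60.

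Of 33 measured genes under oxygen and heme control 10 rose and 8 fell (median 0.01), shares near those of all genes. AAC3, the ADP/ATP carrier of low oxygen, was at 10.69, 10.75 and 10.78 in wild type and 9.69, 9.71 and 9.82 in nup60, a fall of just under 2-fold (-1.0 ± 0.048, adjusted p = 4.62e-08). ANB1, the low-oxygen form of translation factor eIF5A, fell by 0.87, and HYP2, the form made in air, was at 0.00 ± 0.028. FET4, a low-affinity iron and zinc transporter, fell by 0.73 and UPC2, an activator of sterol and hypoxic genes, by 0.60. ROX1, the repressor of hypoxic genes, rose by 0.34 ± 0.070. The risers CYC7 and COX5B are themselves low-oxygen forms. TIR3, a cell wall mannoprotein of low oxygen, was at 11.01 to 11.18 in wild type and 11.13 to 11.20 in nup60.

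Transcripts for deoxynucleotide supply rose. HUG1, a small inhibitor of ribonucleotide reductase that the DNA damage checkpoint induces, was at 9.82, 9.93 and 10 in wild type and 12.98, 13.00 and 12.75 in nup60. The groups were 7.95-fold apart (adjusted p = 2.44e-10). Ribonucleotide reductase makes deoxynucleotides for DNA. RNR3, its damage-induced large subunit, stood at 9.76, 9.64 and 9.51 against 11.28, 11.24 and 11.15 (1.58 ± 0.069). RNR1, the large subunit of ordinary S phase, was at 13.67, 13.31 and 13.23 against 13.32, 13.26 and 13.28, and did not pass (adjusted p = 0.403). Its difference was -0.12, and 0.02 without wild-type array 1. The small subunit genes RNR2 and RNR4 rose by 0.76 ± 0.050 and 0.49 ± 0.046, and DUN1, the kinase that relays the checkpoint to them, by 0.63 ± 0.034. In the list as a whole 8 of 11 rose and 1 fell, WTM2, by 0.21. Its relative WTM1, which holds the small subunits in the nucleus, rose by 0.27 ± 0.044, and RFX1, the repressor of RNR genes, was at 0.21 ± 0.088 (adjusted p = 0.072), or 0.28 without wild-type array 1 (adjusted p = 0.0189).

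Checkpoint kinases and sensors gave 0 rises and 6 falls among 14 genes in limma, and as many at an unadjusted p below 0.05 (median -0.07). Array weights gave 4 rises, and a second quantile normalization gave a median of -0.15. MEC1 and TEL1, the sensor kinases, fell by 0.42 and 0.39, and RAD9, an adaptor, by 0.43. RAD53, the effector kinase, was at 0.08 ± 0.12, and at 0.24 without wild-type array 1 (adjusted p = 0.0385). Wild-type MEC1, TEL1 and RAD9 were highest on array 1, and without it 6 genes of the list were lower and 2 were higher, with a median of -0.10. A list of genes that damage induces, for repair and other roles, gave 11 rises of 19 measured. Only 2 of these were at least 2-fold, and the median was 0.23. PLM2, a damage-induced forkhead protein, rose by 1.28 ± 0.061, the polyubiquitin gene UBI4 by 1.12 ± 0.065 and MAG1, a DNA glycosylase, by 0.61 ± 0.040. The count of rises in this damage-induced list fell to 7 without wild-type array 2, without wild-type array 3 or without nup60 array 1. Without wild-type array 1 it was 12, with a median of 0.31. The 42 genes of the replication machinery had 3 rises and 17 falls (median -0.11), and 5 rises and 15 falls without wild-type array 1. POL2, the leading-strand polymerase gene, was at -0.45 ± 0.057 and MCM3, for a subunit of the helicase, at -0.45 ± 0.075.

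Genes of the pore complex itself were somewhat lower. Of the basket list without NUP60, 4 of 7 fell and none rose in limma, as at an unadjusted p below 0.05. With wild-type array 1 left out there were 4 falls and 1 rise. MLP1, the filament protein that holds faulty mRNA back, was at 11.86, 11.83 and 11.76 in wild type and 11.42, 11.41 and 11.46 in nup60 (-0.39 ± 0.076, adjusted p = 0.00161). MLP2, NUP1 and NUP2, the other filament and mobile basket proteins, fell by 0.31, 0.33 and 0.27, NUP2 by 0.17 without wild-type array 1. ULP1, the SUMO protease, was at 11.66, 11.49 and 11.54 against 11.64, 11.63 and 11.64 (0.07 ± 0.048, adjusted p = 0.244), and was the rise without wild-type array 1 (0.12, adjusted p = 0.0409). ESC1 (-0.20 ± 0.13) and PML39 (0.09 ± 0.057), which also sit at the basket or the envelope near it, did not pass. The TREX-2 complex, which docks at the basket for mRNA export, gave 0 calls of 5 in limma, and 1 rise and 1 fall at an unadjusted p below 0.05. SAC3, its scaffold, was at -0.22 ± 0.085 (adjusted p = 0.055), and passed at -0.28 without wild-type array 3 (adjusted p = 0.0257). In the 13 measured scaffold nucleoporins 10 fell and none rose, also at an unadjusted p below 0.05 (median -0.27), led by NUP120 (-0.41 ± 0.083) and NUP192 (-0.40 ± 0.085). The pore membrane protein gene POM152 fell by 0.42, and its partner POM34 was at 0.11 ± 0.058. In the membrane ring 2 of 4 genes fell and 1 rose, and 4 of 11 FG and cytoplasmic nucleoporins fell, but only 1 without wild-type array 1, nup60 array 1 or nup60 array 3.

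Over all 32 measured nucleoporin genes other than NUP60, 20 were lower and 1 was higher, and the median was -0.22. Wild-type array 1 lay above arrays 2 and 3 by a median of 0.28 over the scaffold genes and 0.19 over the basket list. Without it 17 nucleoporin genes were lower, none was higher and the median was -0.16. The basket genes other than NUP60 then had a median of -0.17, against -0.27 with it. These falls are as measured on the other wild-type arrays alone. NUP192, for example, was at 11.93 on that array, 11.59 and 11.64 on the other wild-type arrays, and 11.30, 11.36 and 11.29 in nup60.

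Transport receptors, the karyopherins that carry cargo through pores, fell in 13 of 23 measured cases of a list with the Ran cycle, and 1 gene rose. GSP2 was that riser. It codes for a lesser form of Ran, the GTPase that gives transport its direction, and was at 11.79, 11.80 and 11.77 in wild type and 13.26, 13.18 and 13.20 in nup60, a 2.69-fold rise (adjusted p = 2.04e-10). GSP1, the main Ran gene, was at 14.88, 14.93 and 14.91 against 14.89, 14.86 and 14.90 (adjusted p = 0.549). KAP122, an importer, was at 11.34, 10.98 and 11.03 against 10.39, 10.42 and 10.36 (-0.73 ± 0.084), NMD5 fell by 0.55, KAP123 by 0.46 and KAP95, importin beta, by 0.41. SRM1, the nucleotide exchange factor of Ran, fell by 0.33. The median of the list was -0.22, and -0.14 with 10 falls when wild-type array 1 was left out.

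Export factors went both ways, with 3 rises and 6 falls among 16 (median -0.08). NAB2, a poly(A)-binding protein that docks mRNA at the basket, was at 12.77, 12.70 and 12.68 in wild type and 13.34, 13.24 and 13.34 in nup60 (0.59 ± 0.037, adjusted p = 4.35e-07). YRA1, an adaptor that hands mRNA to the export receptor, stood at 13.38, 13.46 and 13.42 against 13.95, 13.90 and 13.94 (0.51 ± 0.038). Both genes were clearly above wild type on every nup60 array. The receptor gene MEX67 was at -0.10 ± 0.046 (adjusted p = 0.094), YRA2, a relative of YRA1, fell by 0.35, and THO2, of the complex that couples transcription to export, by 0.49. SUMO pathway genes gave 1 rise and 3 falls among 14 (median -0.04). UBC9, the conjugating enzyme, fell by 0.34 and SLX5, a ubiquitin ligase subunit that recognises SUMO, by 0.24. SMT3, which is SUMO itself, was at 0.02 ± 0.043.

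Chromatin regulators that meet the pore were also read. The deubiquitinase module of SAGA, a coactivator that shares the Sus1 protein with TREX-2, had 2 of 4 genes lower, UBP8 (-0.22 ± 0.056) and SGF11 (-0.24 ± 0.068). Of 17 other SAGA genes 7 fell and none rose in limma, and 10 fell and none rose at an unadjusted p below 0.05 (median -0.18), with the largest fall in TRA1, the activator-binding subunit (-0.69 ± 0.13). ADA2 was at 10.92 to 10.96 in wild type and 10.69 to 10.74 in nup60, below wild type on every array without passing (adjusted p = 0.059). It passed without the arrays labelled as the double deletion (adjusted p = 0.0383), with only the groups compared (0.00264), with array weights (0.00763) and after a second quantile normalization (0.0391). Silencing factors had 10 falls and 1 rise among 20 (median -0.19, and -0.12 without wild-type array 1). SIR2, a histone deacetylase, fell by 0.29, SIR3, which spreads on silent chromatin, by 0.27, and RAP1, a telomere and promoter factor, by 0.42. In a list of inducible genes known to meet the pore, 9 of 15 measured rose and 1 fell (median 0.27). HXK1 and the catalase gene CTT1 (1.68 ± 0.088) led it, GAL7 and INO1 rose by 0.64 ± 0.081 and 0.69 ± 0.059 (0.39 and 0.42 after a second quantile normalization). GAL1 was at -0.03 and did not pass, but did so as lower after that normalization (-0.20, adjusted p = 0.00863).

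Most genes that build ribosomes fell. In the small subunit processome, the particle that makes the small subunit's RNA, 39 of 44 fell and none rose in limma (median -0.35). In large subunit assembly 45 of 47 fell and none rose (median -0.32), and at an unadjusted p below 0.05 the falls were 42 and 46, again with no rise. UTP20, a scaffold of the processome, was at 12.81, 12.37 and 12.43 in wild type and 11.74, 11.73 and 11.79 in nup60 (-0.79 ± 0.10, adjusted p = 0.00011). MPP10 was at 11.31, 11.34 and 11.39 against 10.80, 10.75 and 10.80 (-0.57 ± 0.046), with no such gap between wild-type arrays. For the large subunit, NOC2 fell by 0.58, REA1, the remodelling motor, by 0.50 and SSF2 by 0.46. RCL1 (0.09 ± 0.14), TIF6 (-0.08 ± 0.033) and NOP8 (-0.12) were among those that did not pass. Wild-type array 1 lay above arrays 2 and 3 by a median of 0.14 in the processome and 0.04 in large subunit assembly. Without it the medians were -0.31 and -0.31, with 41 and 46 falls.

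The polymerases behind ribosomal and transfer RNA followed in part. RNA polymerase I and its factors gave 8 falls and 3 rises among 16 (median -0.17), and RNA polymerase III and its factors gave 13 falls and 1 rise among 22 (median -0.14). RPA190 and RPA135, the large subunits of polymerase I, fell by 0.43 and 0.38, and RPO31, that of polymerase III, by 0.36. RRN7, a polymerase I initiation factor, rose by 0.30 ± 0.047. The 3 rises for polymerase I became 1 without wild-type array 1, wild-type array 2, nup60 array 2 or nup60 array 3. MAF1, the repressor of polymerase III, was at 0.07 ± 0.057. Single-copy genes of the large subunit's proteins, from RPL3 to RPP0, gave 0 calls of 11 in limma and 0 at an unadjusted p below 0.05, and their median was -0.04. With an intensity trend in the variance 4 of them passed as lower. Large subunit proteins of the mitochondrial ribosome moved the other way, with 20 of 34 higher and none lower (median 0.16).

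**Figure D4:**
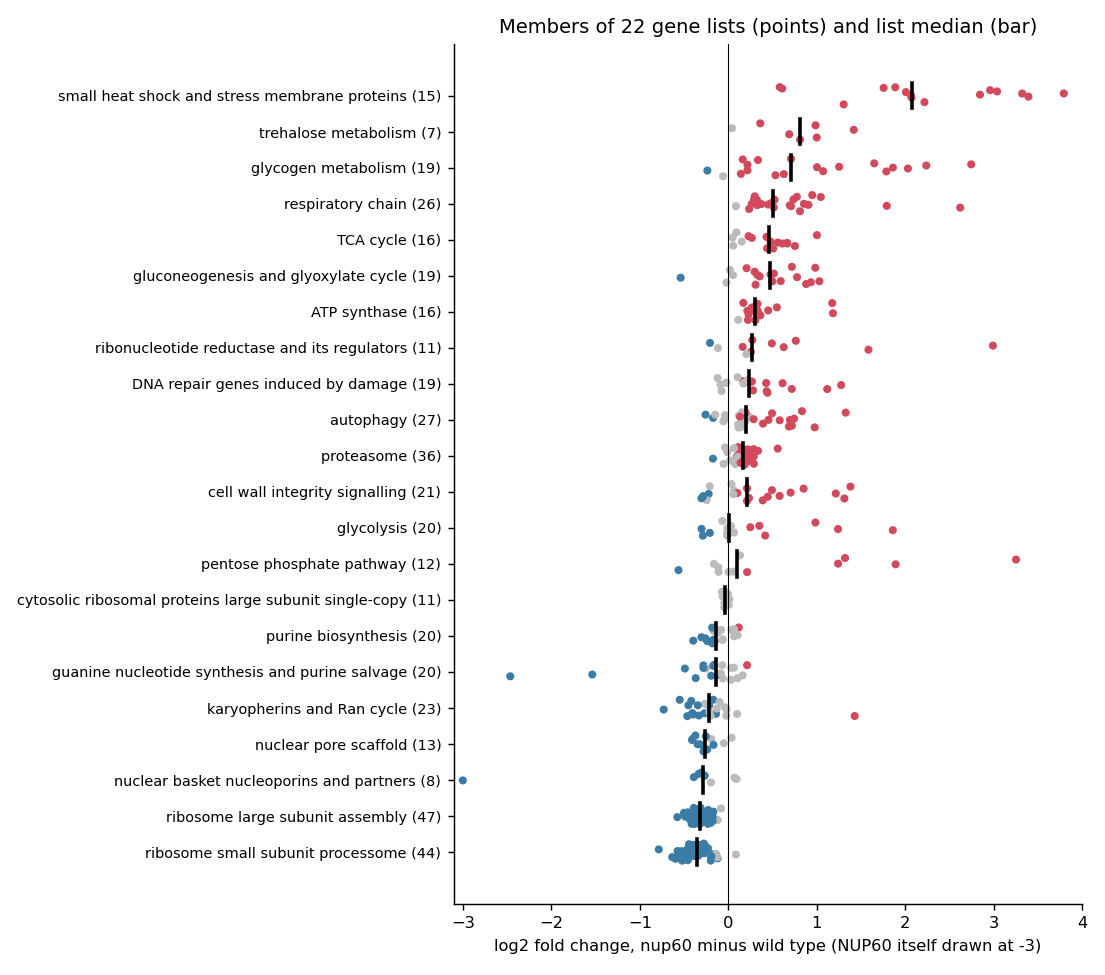
Log2 fold change of nup60 against wild type (horizontal axis) for the members of 22 of the 59 gene lists, 1 point per gene. Points are red where higher, blue where lower and grey where not called. A bar marks the list median, and the number of measured genes is in brackets. Stress, reserve carbohydrate and respiratory lists lie to the right of 0, and ribosome assembly and pore lists lie to the left with smaller changes.

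The list of guanine nucleotide synthesis and purine salvage held the 2 largest falls apart from NUP60. IMD2, an IMP dehydrogenase, the enzyme that starts GMP synthesis, was at 12.07, 12.16 and 12.19 in wild type and 9.53, 9.69 and 9.80 in nup60. The 5.52-fold fall (-2.46 ± 0.085, adjusted p = 3.82e-09) was read by a probe set that can also detect related genes. Its relatives IMD3 and IMD4 fell by 0.49 and 0.16. FCY21, a relative of the purine and cytosine permease, was at 9.94, 10.18 and 10.18 against 8.55, 8.54 and 8.59, a 2.90-fold fall (adjusted p = 5.83e-08), while the main permease gene FCY2 was at 0.03 ± 0.040. AAH1, adenine deaminase, fell by 0.37 and HPT1, which salvages guanine and hypoxanthine, by 0.28. In the whole list 10 of 20 measured genes fell and 1 rose (median -0.14). De novo purine genes gave 9 falls and 1 rise among 20 (median -0.14), with ADE6 at -0.40 ± 0.045 and the activator BAS1 at -0.30 ± 0.051. Pyrimidine genes gave 8 falls and 2 rises among 17 (median -0.21). FUR1, uracil salvage, fell by 0.45 and the CTP synthase genes URA7 and URA8 by 0.33 and 0.42. CDD1, cytidine deaminase, rose by 0.59 ± 0.055.

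Among 43 genes of wall proteins and enzymes 17 rose and 12 fell (median 0.08), the falls in a share near that of all genes. PIR3, a wall protein with internal repeats, was at 8.82, 8.81 and 8.70 in wild type and 11.61, 11.74 and 11.54 in nup60, a 7.21-fold rise (adjusted p = 1.36e-09). Its relative HSP150 rose by 0.24 ± 0.034, and CIS3 (0.03) did not pass. GSC2, the stress-linked glucan synthase, stood at 11.35, 11.17 and 11.25 against 13.12, 13.19 and 13.02 (1.85 ± 0.053), and FKS1, the main synthase, at 14.33, 14.18 and 14.16 against 14.14, 14.10 and 14.06 (adjusted p = 0.082). YPS6, a surface protease, rose by 2.15 ± 0.096, and SPI1, a wall protein of resting cells, by 1.89 ± 0.083. Genes that fell included some for proteins that part daughter from mother cells, EGT2 (-0.51 ± 0.047), DSE1 (-0.56 ± 0.065), DSE4 (-0.34 ± 0.053), SCW11 (-0.27 ± 0.064) and the chitinase gene CTS1 (-0.19 ± 0.042). Neighbouring genes for related sterol-binding proteins moved apart, PRY1 upward by 1.35 ± 0.084 and PRY3 downward to -0.94 ± 0.040.

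Signalling for wall integrity had 13 of 21 measured genes higher and 3 lower (median 0.21). ROM1, an activator of the Rho1 switch, rose by 1.38 ± 0.12, while ROM2, its main form, was at 0.06 ± 0.071, or 0.16 without wild-type array 1 (adjusted p = 0.0141). The stress sensor gene MTL1 rose by 0.85 ± 0.068, the kinase gene SLT2 by 0.49 ± 0.045 and RLM1, the transcription factor under it, by 0.45 ± 0.059. KDX1, a target and relative of Slt2, and SDP1, a phosphatase that turns Slt2 off, rose by 1.31 ± 0.081 and 1.21 ± 0.078.

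Transcripts for protein turnover were also read. Of 36 proteasome genes 27 rose and 1 fell (median 0.17), RPN4, their activator, rose by 0.56 ± 0.037, and BLM10, an alternative cap, fell by 0.17. PRE8, a subunit of the core particle, rose by 0.34 ± 0.046. Of 27 autophagy genes 14 rose and 2 fell. ATG8, the protein that coats autophagosomes, was at 10.36, 10.46 and 10.51 in wild type and 11.81, 11.77 and 11.73 in nup60 (1.33 ± 0.055), ATG19, a receptor, rose by 0.72 ± 0.042, and ATG1, the starting kinase, was at 0.19 ± 0.15, or 0.39 without wild-type array 1 (adjusted p = 0.00794). The autophagy median was 0.20, and 0.34 without wild-type array 1. ATG39, the receptor that takes parts of the nuclear envelope for degradation, was at 6.89, 6.53 and 6.58 against 9.30, 9.34 and 9.24 (2.63 ± 0.084, adjusted p = 2.16e-09). Chaperones under Hsf1 gave 18 rises and 1 fall among 31 (median 0.15). SSA4, a stress Hsp70, rose by 1.44 ± 0.088, HSP78, of mitochondria, by 0.94 ± 0.14, HSP104, the disaggregase, by 0.75 ± 0.087 and HSP82 by 0.49 ± 0.049. The constitutive forms SSA2 and HSC82 were both at -0.07 and did not pass. With an intensity trend in the variance they passed as lower (adjusted p = 0.0235 and 0.0445), and the list then had 5 falls.

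Antioxidant enzymes had 16 of 27 genes higher and 2 lower (median 0.15). Cytosolic catalase CTT1 was at 9.25, 9.23 and 9.29 in wild type and 11.15, 10.81 and 10.87 in nup60. PRX1, a mitochondrial peroxiredoxin, rose by 1.02 ± 0.051 and GTT1, a glutathione transferase, by 1.11 ± 0.057. TSA1, the abundant cytosolic peroxiredoxin, was at 0.03 ± 0.028, and GRX4, a glutaredoxin of iron sensing, fell by 0.35.

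Nitrogen genes that a good nitrogen source represses gave 18 rises and no fall among 29 measured in limma, as at an unadjusted p below 0.05 (median 0.25). PUT1, proline oxidase, rose by 1.64 ± 0.069, with 8.97 to 9.20 in wild type and 10.63 to 10.81 in nup60. GAP1, the general amino acid permease, rose by 0.92 ± 0.097 and GAT1, an activator of the group, by 0.68 ± 0.067, and GLN1, glutamine synthetase, was at -0.02 ± 0.031. In the GABA shunt, which turns glutamate into succinate, GAD1, glutamate decarboxylase, was at 10.52, 10.42 and 10.39 in wild type and 12.69, 12.63 and 12.57 in nup60, a 4.54-fold rise (adjusted p = 2.44e-10). UGA1 and UGA2, the next enzymes, rose by 0.71 ± 0.078 and 1.0 ± 0.070.

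Phosphate and metal genes moved one by one more than as groups. Of 22 phosphate genes 7 rose and 4 fell (median 0.06). PHM8, a nucleotide phosphatase of starving cells, was at 7.74, 7.19 and 7.23 in wild type and 9.92, 10 and 9.84 in nup60 (2.53 ± 0.13). PHO84, the high-affinity transporter, rose by 0.95 ± 0.11, and PHO4, the activator, was at -0.05 and did not pass. ZRT1, the high-affinity zinc transporter, was at 11.46, 11.67 and 11.67 against 10.61, 10.67 and 10.65, a 1.94-fold fall (adjusted p = 5.93e-06), and ZAP1, its activator, was at -0.13 ± 0.11. In the zinc list 7 of 16 fell and 1 rose (median -0.14). HMX1, heme oxygenase, rose by 0.92 ± 0.11, and the iron uptake genes FRE4 and FIT1 fell by 0.81 and 0.63. The iron list gave 5 rises and 6 falls among 27 (median -0.07), and 8 rises without nup60 array 1. ATF2, an alcohol acetyltransferase that makes esters, fell by 0.91, with ATF1 at -0.44 ± 0.050. The list of ester and fusel alcohol genes gave 6 falls and 2 rises among 13 (median -0.11, and -0.06 without wild-type array 1).

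Meiosis genes, normally silent in a haploid, were partly higher, with 15 of 35 up and 2 down (median 0.19). RIM4, an RNA-binding regulator of meiosis, was at 6.84, 6.68 and 6.73 in wild type and 9.51, 9.63 and 9.51 in nup60 (2.80 ± 0.090, adjusted p = 2.16e-09). SPS100, a spore wall gene, rose by 1.43 ± 0.087 and IME2, a meiotic kinase, by 0.76 ± 0.13. IME1, the master regulator, was at 0.01 ± 0.052. After a second quantile normalization the list gave 9 rises and 7 falls and a median of 0.02. Wild-type array 1 lay above arrays 2 and 3 by a median of 0.23 over this list, and 18 genes were higher and 1 lower without it. Of 20 cyclins and their partners 10 rose and 2 fell (median 0.13). CLN3, the first G1 cyclin, rose by 0.48 ± 0.061 and WHI5, the repressor it opposes, fell by 0.51. Core histone genes and variants had 5 falls and 1 rise among 10 (median -0.11). There were 2 or 3 falls without wild-type array 2, wild-type array 3 or any 1 nup60 array. Leaving out probe sets of shared sequence, or fitting the replicate numbers as a block, gave 3 falls. Genes of G2/M, the entry into mitosis, and of mitotic exit gave 9 rises and no fall among 18 measured. Their median was 0.20, and 0.12 and 0.13 without wild-type array 2 and array 3. SPO12 was at 0.76 ± 0.053 and the kinase gene KIN3 at 0.64 ± 0.080. Without wild-type array 1 the list of G2/M and mitotic exit gave 13 rises and a median of 0.27.

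Other genes among the 20 largest rises had less settled roles. NCA3, a member of the SUN family of wall proteins, was at 9.22, 9.10 and 9.06 in wild type and 12.18, 12.22 and 12.10 in nup60 (3.04 ± 0.14). FMP16, found in mitochondria, rose by 2.96 ± 0.12, TMA10, a ribosome-associated protein gene, by 2.84 ± 0.093, and RTC3 by 2.65 ± 0.098. EGO4 and GPG1 each rose by 2.44, and the uncharacterised YIR042C by 2.30 ± 0.26, from 5.59 to 6.32 in wild type to 8.0 to 8.39 in nup60. Among the 20 largest falls were YHK8, a presumed drug transporter (-0.95 ± 0.058), the phospholipase gene PLB2 (-0.83 ± 0.088), and the unnamed reading frame YDR514C, at 10.53, 10.57 and 10.54 against 9.72, 9.71 and 9.78 (-0.81 ± 0.033).

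The direct test of nup60 against ada2 set the deletions side by side, with wild type left out of the difference. The nup60 strain was higher than ada2 in 1410 genes (25.9%) and lower in 1467 (26.9%), and the median over all genes was -0.01. Both comparisons use the same nup60 arrays, so agreement between them is no separate evidence. All 15 small heat shock and stress genes were higher in nup60 than in ada2, with a median of 1.70. HSP12 was at 14.81 to 14.95 in nup60, 13.62 to 13.77 in ada2 and 11.46 to 11.67 in wild type, an order with no overlap. DDR2 was at 9.37 to 9.54 in ada2, where wild type had 9.49 to 9.74, and differed from nup60 by 3.97 ± 0.088. HUG1 differed by 3.85 ± 0.073, PIR3 by 3.54 ± 0.086 and GPH1 by 2.76. Respiratory chain genes were higher in nup60 in 21 of 26 cases and lower in none (median difference 0.39).

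The largest differences lay partly in genes that ada2 cells have low. After ADA2 itself (6.49 ± 0.092), YGP1, a secreted wall glycoprotein, had means of 13.41 in wild type, 14.82 in nup60 and 9.50 in ada2, a difference of 5.32 ± 0.12. NCA3 differed by 4.84 ± 0.14, and YGR109W-A, a reading frame of the Ty3 retrotransposon read by a probe set of shared sequence, by 4.82 ± 0.15. NDJ1, a meiotic telomere protein gene, had means of 7.68, 9.81 and 6.03 in the same order, and PHO3, a constitutive acid phosphatase gene, had 13.05, 13.50 and 10.17. In the other direction the arginine genes ARG3 and ARG1 had 8.85, 9.26 and 12.06, and 11.41, 11.16 and 13.87. ANB1 was below wild type in nup60 and above it in ada2 (11.61, 10.75 and 12.59), as were ZRT1 (11.60, 10.64 and 12.39) and PRY3 (11.89, 10.95 and 12.49). IMD2 was low in both deletions, with means of 12.14, 9.68 and 9.97, and nup60 lay below ada2 by 0.29 ± 0.085 (adjusted p = 0.015). Ribosome assembly genes were lower in nup60 than in ada2 in 15 of 44 and 28 of 47 cases, against 26.9% of all genes. In each of these lists 1 gene was higher, and the median differences were -0.12 and -0.18. Activators differed as well, since HAP4, for respiratory genes, was 1.04 above ada2 and CAT8, for gluconeogenesis genes, fell short of ada2 by 0.92.

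Long genes were lower in nup60 as a class, and this moved with wild-type array 1. With the genes split into 5 classes by coding length, the class with the longest (2109 to 14733 bases, 1089 genes) stood apart. Its median log2 difference from wild type was -0.17, and 41.4% of them were lower and 9.92% higher. The other 4 classes had medians from -0.02 to 0.02. Wild-type array 1 stood 0.27 above the mean of wild-type arrays 2 and 3 over the longest genes, and the nup60 arrays stood at -0.07 to -0.10 from that mean. Without wild-type array 1 the median was -0.08, with 33.2% lower, and against ada2 it was -0.11. Scaffold nucleoporins and karyopherins, with median coding lengths of 3114 and 2835 bases, lie in that range by their medians, whereas the small heat shock list has a median of 507 bases and large subunit assembly one of 1572. The part of gene length in the falls of the pore and transport lists was not tested.

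**Figure D5:**
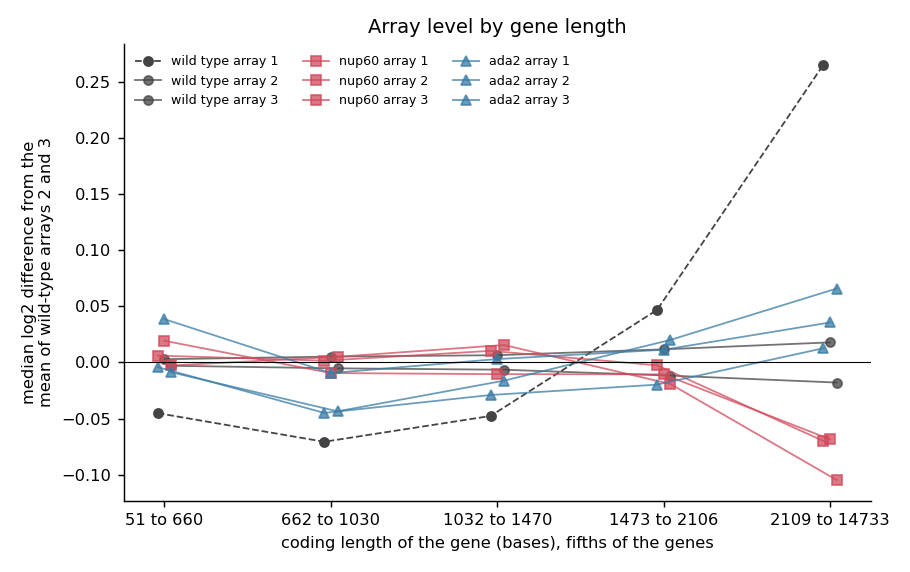
Median log2 difference of each array from the mean of wild-type arrays 2 and 3 (vertical axis) in 5 classes of genes by coding length in bases (horizontal axis), 1 line per array. Wild-type array 1 rises to 0.27 in the longest class, where the nup60 arrays lie between -0.07 and -0.10.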

How the data were processed

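RNA of 12 yeast cultures, 3 per strain, was labelled from 5 µg of total RNA and read on Affymetrix arrays. The deposited intensity values lie on a linear scale and were made by the authors, whose processing notes, per the submitters, name Affymetrix Expression Console 1.1 with RMA. RMA sets all arrays to 1 distribution, so values are relative. Here log2 was taken with no further normalization. Of the probe sets, 5498 named 1 S. cerevisiae gene, 1746 were S. pombe, 166 were controls, 47 were reporters, 1 named several genes and 3470 were paired with none. For 47 genes with several probe sets the brightest was used, and 115 genes had a probe set of shared sequence. The background level was the 95th percentile of S. pombe means. No build is named in the sources used here, and names, neighbours and coding lengths came from a RefSeq table. Tests used limma 3.58.1 in R 4.3.3 with group means, all 12 arrays, and 8 residual and 2.58 prior degrees of freedom. The number of arrays limits precision.

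On simulated data of 5449 genes, the procedure recovered 49.3%, 94.0% and 100% of changes of 0.25, 0.5 and 1 on the log2 scale, with 10 false calls. Only 66 or 67 genes were changed at each size, far fewer than passed in the data, so these rates do not carry over. Genes could be named if they were NUP60 or its neighbours, among the 20 largest rises or falls whose arrays did not overlap or the 10 largest differences from ada2 each way, or members of 59 lists and 30 pairs. PSP2, PHM6, YDR034C-A, YER188C-A, EDC1 and UBC11 of those falls and HPF1, YKR041W and FRE5 of those differences are not described. Lists held 1126 measured genes, and 24 members were not measured. The members and lists were chosen with earlier results of these data known. Replicate numbers were not used to pair the samples. Deviations of same-numbered wild-type and nup60 arrays from their group means correlated at 0.04, -0.35 and 0.34. With so few arrays a group, these values cannot show whether same-numbered arrays shared a batch. Alternatives were median centring, quantile normalization once more, leaving out dim genes or probe sets of shared sequence, an intensity trend, robust moderation, array weights, averaged probe sets, only the groups compared, a replicate block, each array left out and, added after seeing the data, a fit without the arrays labelled as the double deletion.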

Additional observations from a re-analysis of the deposited data

Results flagged for a closer look

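Probe sets that the pairing table gives no gene entered no comparison, and no test was made on them. The largest differences in each direction are given, 4 in all. They were picked where the groups did not overlap and the higher group lay above background on every array. How many others differed was not counted. Probe set 1778149_at was higher in nup60 by 2.25 on the log2 scale, with 8.40 ± 0.13 (SD, n = 3) in wild type and 10.64 ± 0.14 in nup60. Probe set 1769544_at was higher by 1.92, with 6.98 ± 0.26 against 8.90 ± 0.10. Probe set 1778878_s_at differed by -2.56, with 11.62 ± 0.27 against 9.06 ± 0.16, close to the fall of IMD2. Probe set 1777850_at differed by -0.95, with 7.78 ± 0.049 against 6.83 ± 0.16.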

How the results depend on the processing

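Under the 17 alternatives tried for nup60 against wild type, the counts of genes stayed within 1.5 times those reported. With 1 wild-type or nup60 array left out, 1136 to 1380 genes were higher (1369 with all) and 1148 to 1401 lower (1429 with all), and under the other 11 alternatives 1215 to 1770 were higher and 1278 to 1987 lower. Against ada2, leaving out an array gave 1212 to 1305 higher and 1216 to 1291 lower genes, and the other 10 alternatives 1265 to 1836 and 1347 to 2010. With the replicate numbers as a replicate block, 1270 genes were higher and 1278 lower than in wild type, and 1313 and 1347 against ada2. Without the arrays labelled as the double deletion, an alternative added after seeing the data, 1438 were higher and 1563 lower. A second quantile normalization gave 1215 higher and 1638 lower genes and moved the median of autophagy genes to 0.10 and of nitrogen genes to 0.16. Array weights raised the falls among purine genes from 9 to 15, among SAGA genes from 7 to 11 and among phosphate genes from 4 to 7. Of the 55 genes named in the report that did not pass, 24 passed under at least 1 alternative. The cause of these shifts was not tested. Changes of 0.25 on the log2 scale were recovered in 49.3% of simulated cases. The simulation held far fewer changed genes than passed here, so this sets no detection limit for these data. Small differences may still go undetected with 3 arrays a group. Genes near the background level have compressed differences.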
